A study of Mus musculus with 14 samples.

Results

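The genes described here are 38 antiviral genes that type I interferon is known to switch on, measured in mouse regulatory T cells (Treg cells, the suppressive CD4 T cells defined by Foxp3). The members are a fixed list of gene symbols, and each was read from a probe set that the platform annotation gives to that gene alone. That list was chosen with earlier results of these data known, so its shares beside those of all genes are a description. Of the 38 listed genes, 35 had such a probe set, and these 35 were among the 12212 genes tested. The only Isg15 probe set names a second gene, and Oas1g and Ifi44 had no entry in the annotation used, so no value is given for these 3. A gene was tested where its signal reached 100 in at least 3 of the 14 arrays, and Oasl2 met this through the tumor-activated samples alone.

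Both activated states and their controls were measured on 14 Affymetrix arrays. All Treg cells carried a Foxp3-ires-GFP knock-in allele made on the 129/SvJ background (H-2b), in which GFP marks cells that transcribe Foxp3. The 6 naive samples came from resting spleens, replicates 1 to 3 as controls for graft-versus-host disease (GVHD) and replicates 4 to 6 as controls for the tumor. The 3 GVHD-activated samples came from spleens of Balb/c recipients (H-2d), lethally irradiated with 900 cGy, on day 4 after a transplant. These recipients had been given 2000000 wild-type 129/SvJ bone marrow cells and 2000000 CD4+ and CD8+ T cells of knock-in donors. GFP in these recipients could come only from the transferred T cells, and the samples could still hold host cells that survived irradiation. The 5 tumor-activated samples came from ascites of knock-in mice, 5 days after 1000000 cells of P815, a mastocytoma line from DBA/2 mice (H-2d), were put into the peritoneum. The protocol attached to naive replicates 1 to 3 also names RMAS, a different tumor line. Sort purity is given as over 95% for naive replicates 4 to 6 and both activated groups and is not given for naive replicates 1 to 3. The titles call the samples biological replicates, and ages, sexes and the number of mice behind each are not given.

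Type I interferons bind the receptor made of IFNAR1 and IFNAR2, whose kinases JAK1 and TYK2 pass the signal on by phosphorylation. STAT2 and IRF9 are parts of ISGF3, the factor formed in response, which binds the interferon-stimulated response element in promoters of genes such as Oas1a, Mx1 and Ifit3. Their products sense, bind or degrade foreign RNA, block viral entry or release, and feed back on the signal, and interferon gamma induces some of them too.

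The promoters are shown first, because they carry the element that ISGF3 binds. RefSeq promoters (GRCm38.p6), cut to the 250 bases before the transcription start, were found for 29 of the 38 members, as 37 promoters in all. The core of the element, GAAA, any 2 bases, then GAAA (TTTC, any 2 bases, then TTTC on the other strand), was in 11 of the 37, or 29.7%, against 2.98% of all 32851 promoters of the same length. The gamma-activated site TTCNNNGAA, which reads the same on both strands, was in 6 of 37 (16.2%), against 7.02% of all promoters, and 2 of 37 (5.41%) held both, against 0.332%. The list was drawn from genes known to respond to interferon, so this is a description and not independent of that choice. The 6 printed are the members with the core that had the largest change in GVHD in either direction. Capitals mark each core match, adjacent or overlapping matches run together, and each sequence is read 5′ to 3′ towards the gene.
Oas1a: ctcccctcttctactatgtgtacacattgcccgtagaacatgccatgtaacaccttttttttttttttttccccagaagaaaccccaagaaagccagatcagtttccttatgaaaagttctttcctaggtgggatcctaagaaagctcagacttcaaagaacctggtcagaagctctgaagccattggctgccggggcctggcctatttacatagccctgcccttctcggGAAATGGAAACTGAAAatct
Oas3: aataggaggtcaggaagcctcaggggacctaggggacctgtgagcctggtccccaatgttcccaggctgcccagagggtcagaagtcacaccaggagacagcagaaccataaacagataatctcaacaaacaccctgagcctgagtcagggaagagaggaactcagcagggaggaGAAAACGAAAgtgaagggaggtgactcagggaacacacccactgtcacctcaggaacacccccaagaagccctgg
Rsad2: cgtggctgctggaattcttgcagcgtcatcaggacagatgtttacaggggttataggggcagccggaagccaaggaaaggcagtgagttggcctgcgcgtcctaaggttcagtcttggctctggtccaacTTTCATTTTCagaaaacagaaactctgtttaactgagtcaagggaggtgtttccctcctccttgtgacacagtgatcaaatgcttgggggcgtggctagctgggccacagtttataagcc
Ddx60: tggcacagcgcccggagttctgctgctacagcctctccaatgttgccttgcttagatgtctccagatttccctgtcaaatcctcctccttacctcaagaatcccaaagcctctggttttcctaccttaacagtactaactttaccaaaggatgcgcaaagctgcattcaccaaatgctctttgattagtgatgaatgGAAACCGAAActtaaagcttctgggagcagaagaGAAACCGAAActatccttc
Ifit3: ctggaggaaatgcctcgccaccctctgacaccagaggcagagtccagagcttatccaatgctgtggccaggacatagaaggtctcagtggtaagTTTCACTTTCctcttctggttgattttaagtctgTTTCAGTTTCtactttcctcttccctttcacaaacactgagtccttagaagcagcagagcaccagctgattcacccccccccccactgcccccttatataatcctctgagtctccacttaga
Bst2: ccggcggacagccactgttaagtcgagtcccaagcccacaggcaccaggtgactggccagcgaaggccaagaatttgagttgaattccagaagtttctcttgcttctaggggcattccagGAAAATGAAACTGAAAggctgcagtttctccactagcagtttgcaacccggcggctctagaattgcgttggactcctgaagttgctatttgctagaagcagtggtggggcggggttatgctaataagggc
The Oas1a window is chr5:120907526-120907775 (minus strand), with matches that begin 20 and 14 bases before the start. The Oas3 window is chr5:120777660-120777909 (minus strand), with 1 match 75 bases before the start. Rsad2 has 1 match 120 bases before the start, in chr12:26456453-26456702 (minus strand). Ddx60 has matches 53 and 19 bases before the start, in chr8:61927837-61928086 (plus strand). In the Ifit3 window, chr19:34583279-34583528 (plus strand), matches begin 156 and 122 bases before the start. The Bst2 window is chr8:71537473-71537722 (minus strand), with matches 130 and 124 bases before the start. Isg15, Oas1g, Ifit1, Stat2 and 1 promoter of Trim30a also hold the core, and the 19 matches in all lie 12 to 222 bases before the start (median 75). By the call in GVHD, the core was in 5 of 12 members that rose, 3 of 13 that did not pass the test and in Ddx60, which fell. A match is a stretch of letters and not a measured binding site.

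Every array was scaled to a mean of 500 without its lowest and highest 2%, and the scaled value is called the signal. Changes are on the log2(signal + 32) scale, and "rose" and "fell" mean an adjusted p under 0.05 in limma. GVHD-activated arrays had been deposited at a scale of 1500 and all others at 500, so for GVHD against naive replicates 1 to 3 the processing set and the group cannot be told apart. T cell markers summed to 153608 to 173044 in naive replicates 1 to 3, 150554 to 176754 in GVHD, 79527 to 120340 in naive replicates 4 to 6 and 13595 to 65807 in the tumor-activated samples. Macrophage markers summed to 1634 to 1703, 3340 to 5645, 2901 to 13879 and 63920 to 128376 in the same order. Mast cell and mastocytoma markers summed to 42579 to 87083 in the tumor-activated samples and to at most 4594 elsewhere. The probe set for Foxp3, the gene that defines the sort, stayed below 100 in naive replicates 4 to 6 and in both activated groups, and its list of 6 Treg markers summed to 7794 to 55584 in the tumor-activated samples against 46895 to 51534 in their controls. Tumor-activated 3 stood apart, with the lowest T cell sum, the highest macrophage sum and 37.3% of probe sets at 100 or more against 45.6% to 55.4% elsewhere. In such bulk samples, fewer cells of a type and less RNA per cell cannot be told apart.

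GVHD-activated Treg cells had higher signals for most of the antiviral genes than naive replicates 1 to 3. Of the 35 tested members 19 rose (54.3%), 1 fell and 15 did not pass the test, while 9.83% of all genes tested rose and 12.5% fell. Counted either way, 22.3% of all genes passed. As the list was chosen with earlier results of these data known, these shares describe it and are not an independent test. The largest rises were in the oligoadenylate synthetases Oas1a (8.97-fold), Oas3 (8.30-fold) and Oas2 (6.99-fold), whose products make the second messenger that activates RNase L. The median log2 change over the members was 1.29, against -0.11 over all genes. All 19 that rose had no overlap with naive replicates 1 to 3, 18 of them none with either naive set, and 16 none with the tumor-activated samples either. Lack of overlap with naive replicates 1 to 3 follows in part from the call itself. Among the 35 members 26 (74.3%) did not overlap between GVHD and naive replicates 1 to 3, against 48.7% of all genes. The GVHD mean was the highest of the 4 groups for 26 of the 35. For that count, and for the 18 and 16 above, no share over all genes was computed. With each array centred on its T cell markers 3 members rose (8.57%, against 2.32% of all genes), namely Oas1a, Oas2 and Oas3, with a median of 1.59 against 0.20 over all genes. On the deposited scale, without rescaling, 34 rose (97.1%, against 64.7% of the genes tested), with a median of 2.87 against 1.32.

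None of 16 T cell markers passed the test in GVHD. Of 14 macrophage markers 1 rose, Ccr2, a chemokine receptor that activated T cells also make (log2 change 3.21). On all 3 GVHD arrays 6 stayed below 100 (Marco, Lyz2, Arg1, Msr1, Itgam and Cd5l). In naive replicates 1 to 3 that held for 7, without Cd5l and with Cd14 and Cd163, which reached 100 in GVHD. The macrophage sum, which includes Ccr2, was higher in GVHD, at 3340 to 5645 against 1634 to 1703. None of 6 B cell or 4 CD8 T and NK cell markers tested passed the test.

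**Figure D1:**
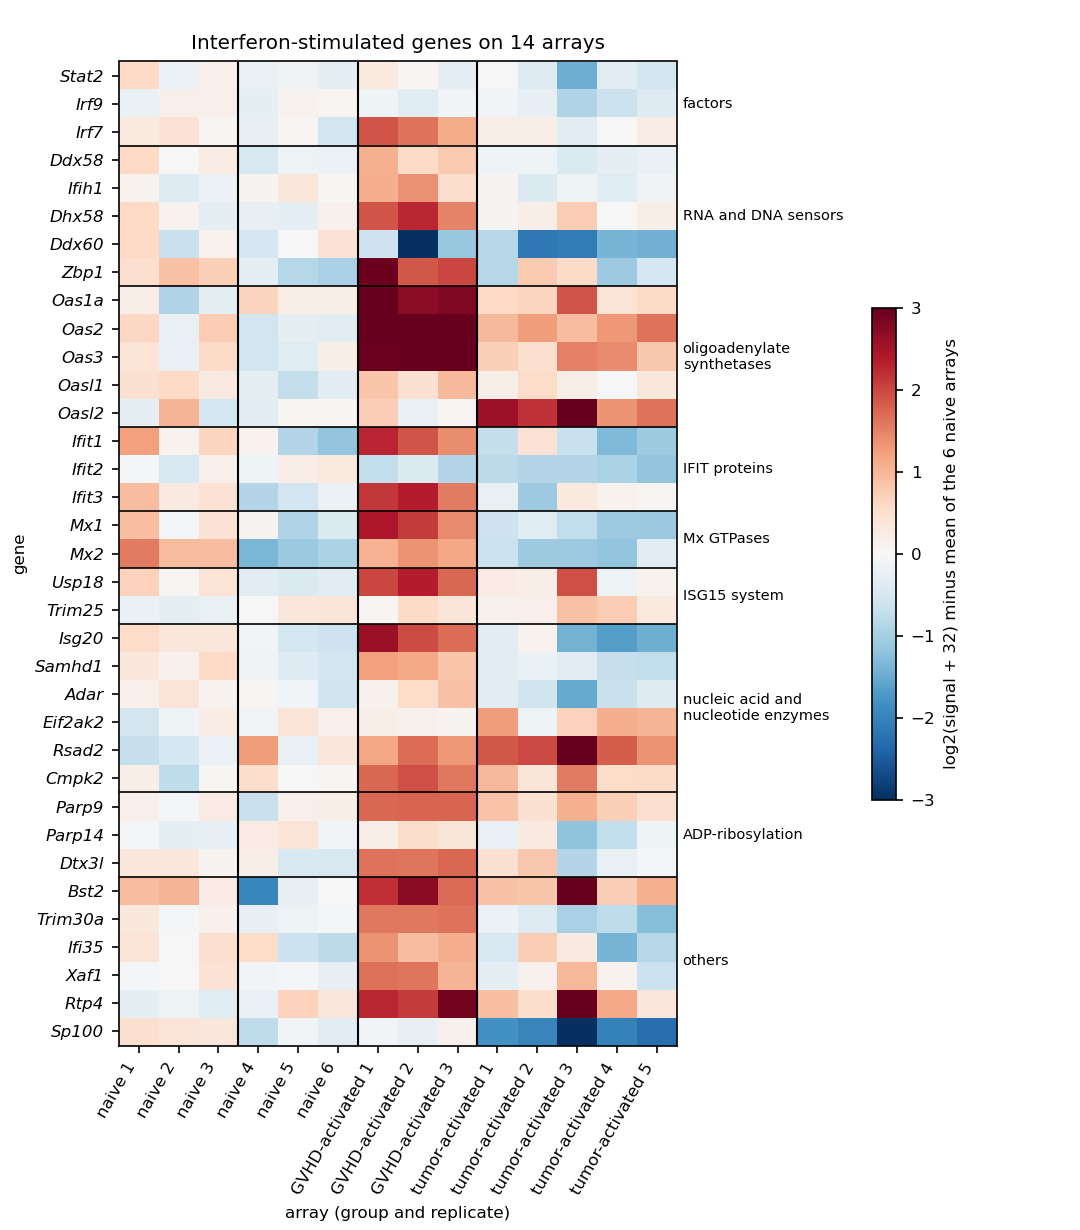
Each row is 1 of the 35 measured antiviral genes in its role group and each column 1 of the 14 arrays; colour is the log2(signal + 32) minus the mean of the 6 naive arrays for that gene, and differences beyond 3 in either direction take the end colours. The 3 GVHD columns are the warmest for 26 genes by group mean, and tumor-activated 3 differs from the other 4 tumor columns in Rtp4, Bst2, Usp18, Oas1a, Dhx58 and Sp100.

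In tumor-activated Treg cells fewer members moved, and in both directions. Relative to naive replicates 4 to 6, 7 of 35 rose (20%) and 3 fell (8.57%), and over all genes 16.2% rose, 15.5% fell and 31.7% passed either way, so the share that rose was near the background. The 7 were Oasl2, Bst2, Oas2, Rsad2, Oas3, Parp9 and Oasl1, and the 3 that fell were Sp100, Ddx60 and Ifit2. The median log2 change was 0.27, against -0.06 over all genes. Groups did not overlap for 11 members (31.4%), against 34.4% of all genes. Without tumor-activated 3, the 7 rises and 3 falls were the same genes, while 18.7% of all genes rose and 17.1% fell.

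Beside these changes, 12 of 16 T cell markers fell, 11 of 14 macrophage markers rose and 7 of 9 mast cell and mastocytoma markers rose in the tumor-activated samples. Gapdh gave a 3′ signal 7.45 to 19.1 times its 5′ signal in the tumor samples' controls, where a high ratio is a sign of degraded RNA. The ratio was 2.19 to 2.64 in 4 tumor-activated arrays and 19.9 in tumor-activated 2, and it did not exceed 5.11 in GVHD or its controls. The part of these markers and of RNA quality in the tumor changes was not tested. With each array centred on the T cell markers in place of the whole array, 32 members rose (91.4%, against 69.1% of all genes) and 0 fell, with a median of 2.12 against 1.79 over all genes. That centring moves every gene alike. Under it Ifit2 and Ddx60 were above 0 (0.79 and 0.28, neither past the test), and Sp100 came to -0.04, all 3 still below the 1.79 of all genes.

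The 2 activations were set against each other as the tumor change minus the GVHD change, each from its own controls. Of the 35 members 7 had a smaller change in the tumor (20%) and 0 a larger one, against 3.39% and 7.39% of all genes, or 10.8% either way. These were Oas1a, Isg20, Trim30a, Mx1, Oas3, Ifih1 and Dhx58, and the difference pointed the same way, short of the test or past it, in 29 of 35. Over all 12212 genes, 6155 pointed the opposite way. The median difference was -0.98 log2 units, against 0.01 over all genes. Without tumor-activated 3 the count was 15 (42.9%, against 6.35% of all genes), with Oas2, Usp18, Cmpk2, Parp9, Parp14, Xaf1, Rtp4 and Sp100 added. Without naive replicate 2 it was 4 (11.4%, against 2.90% of all genes). With arrays centred on T cell markers it was 0, against 0.0491% of all genes, and the median was 0.57 against 1.56 over all genes.

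**Figure D2:**
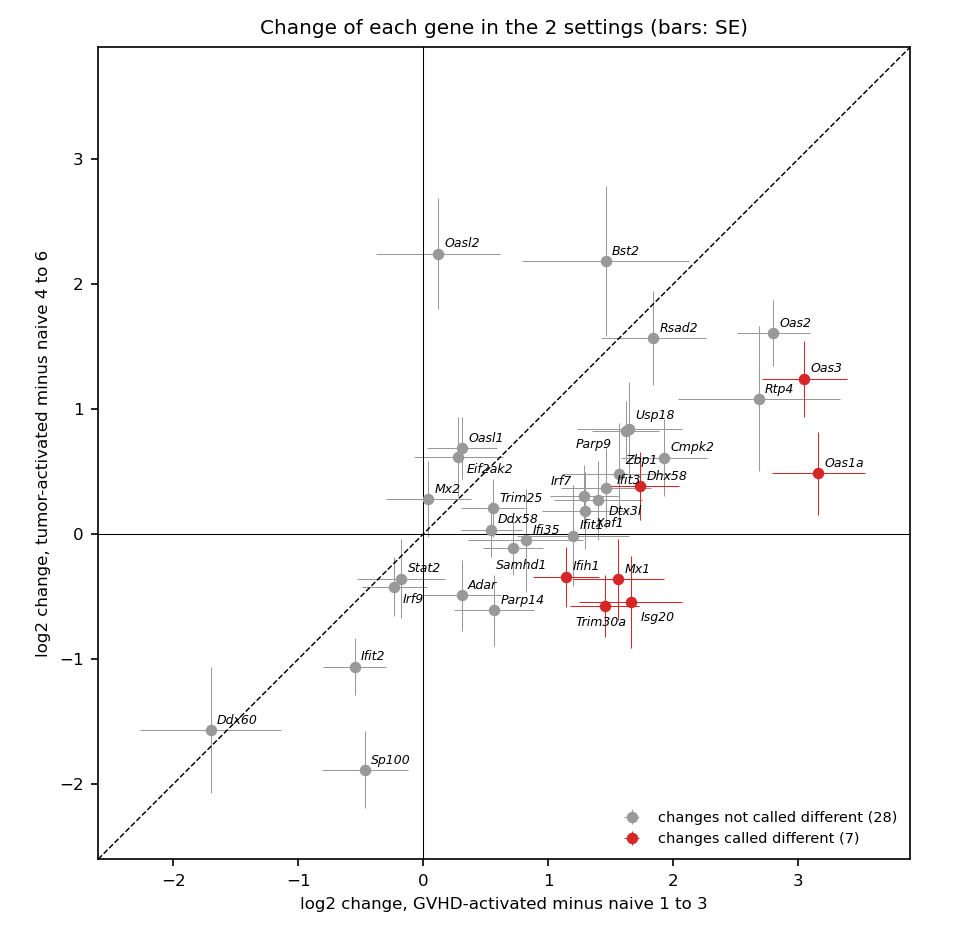
The log2 change in GVHD (x axis, against naive replicates 1 to 3) is plotted against the log2 change in tumor (y axis, against naive replicates 4 to 6) for the 35 members, with bars of 1 SE and red for the 7 whose changes differed by the test. Of the 35 points 30 lie right of zero and 29 below the dashed line of equal change, while Oasl2 (0.12 and 2.25) lies above it.

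Of the 3 factors that carry the signal, Irf7 rose in GVHD and none passed the test in tumor. Stat2 and Irf9 encode parts of ISGF3, and Irf7 is the factor that amplifies interferon production once induced. Stat2 signals were 395, 217 and 277 in naive replicates 1 to 3 and 311, 258 and 198 in the GVHD-activated samples. For Stat2, naive replicates 4 to 6 gave 209, 230.2 and 200.5, and the tumor-activated samples gave 246, 181, 69.1, 194 and 158. Neither activation separated from its controls (log2 change -0.17 ± 0.35 (SE), adjusted p = 0.777 in GVHD, and log2 change -0.35 ± 0.31 (SE), adjusted p = 0.422 in tumor). In naive replicates 1 to 3 Irf9 read 1519, 1966 and 1971, against 1618, 1352 and 1650.1 in the GVHD-activated samples. Irf9 read 1462, 1894 and 1822 in naive replicates 4 to 6 and 1662, 1481, 923, 1107 and 1339 in the tumor-activated samples. Irf9 overlapped between groups in both comparisons (log2 change -0.23 ± 0.26 (SE), adjusted p = 0.583 in GVHD, and log2 change -0.42 ± 0.23 (SE), adjusted p = 0.19 in tumor).

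The Irf7 signal was 1256, 1385 and 1070.3 in naive replicates 1 to 3 and 3853, 3257 and 2275 in the GVHD-activated samples. The Irf7 values were 857, 1068 and 679.6 in naive replicates 4 to 6 and 1184, 1178, 799.8, 1018 and 1203 in the tumor-activated samples. All 3 GVHD values of Irf7 were above every other array, a 2.45-fold rise (log2 change 1.29 ± 0.27 (SE), adjusted p = 0.0028). The tumor values overlapped those of their controls (log2 change 0.31 ± 0.24 (SE), adjusted p = 0.367).

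Of the 5 sensors of nucleic acid, 3 rose and 1 fell in GVHD, and 1 fell in tumor. Dhx58 encodes LGP2, a helicase that tunes signalling by the RNA sensors. In naive replicates 1 to 3 Dhx58 read 448, 312 and 228, against 1151, 1485 and 858 in the GVHD-activated samples. Dhx58 read 236, 227 and 315 in naive replicates 4 to 6 and 307, 330.3, 509.8, 284 and 333 in the tumor-activated samples. The GVHD values lay above all others (log2 change 1.74 ± 0.31 (SE), adjusted p = 6.98e-04), and a second, dimmer probe set gave -0.49 in GVHD, so the probe sets disagree. In tumor the change was 0.39 ± 0.27 (SE, adjusted p = 0.308), and tumor-activated 3 was the highest of the 5. The difference between the changes was -1.35 ± 0.41 (SE, adjusted p = 0.0455), and 11 of the 14 fits that left out 1 array lost this call, with values from -1.43 to -1.14. T cell centring gave 0.20, below the 1.56 of all genes.

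Ifih1 encodes MDA5, a sensor of long double-stranded RNA. The Ifih1 signal was 1558, 1107 and 1279 in naive replicates 1 to 3 and 3125, 3817 and 2081 in the GVHD-activated samples. The Ifih1 values were 1524, 1829 and 1481 in naive replicates 4 to 6 and 1531, 1075, 1306, 1109 and 1335 in the tumor-activated samples. Its 3 GVHD values were the highest of the 14 (log2 change 1.15 ± 0.27 (SE), adjusted p = 0.00549), and the tumor values overlapped their controls (log2 change -0.34 ± 0.24 (SE), adjusted p = 0.302). The difference of -1.48 ± 0.36 (SE) had an adjusted p of 0.0131 and came to 0.064 with arrays centred on T cell markers, again below the 1.56 of all genes.

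Ddx60, a helicase linked to RNA sensing, was the member that fell in both comparisons. Ddx60 signals were 574, 218 and 399 in naive replicates 1 to 3 and 225, 9.20 and 148 in the GVHD-activated samples. For Ddx60, naive replicates 4 to 6 gave 250.2, 371 and 504, and the tumor-activated samples gave 187, 57.4, 61.5, 120.2 and 115. The GVHD values overlapped naive replicates 1 to 3 through 1 array on each side (log2 change -1.70 ± 0.56 (SE), adjusted p = 0.0399), whereas the tumor values lay below all 3 controls (log2 change -1.57 ± 0.50 (SE), adjusted p = 0.0261). The fitted change was positive without rescaling in GVHD (1.32, where all genes had a median of 1.32) and with T cell centring in tumor (0.28, where that median was 1.79). A second Ddx60 probe set fell in tumor (-1.45) and gave -0.07 in GVHD. The probe set that is brighter on average changed from the first to the second when naive 1, naive 3, GVHD-activated 1 or GVHD-activated 3 was left out, and the GVHD value then lay between -0.40 and 0.11. Without GVHD-activated 2 it was -0.90 with adjusted p = 0.208. The tumor call ended without naive 5 (-1.55 with adjusted p = 0.0801) and without naive 6 (-1.35 with adjusted p = 0.108).

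Zbp1, a sensor of left-handed nucleic acid, rose in GVHD, with signals of 1045 to 2236 against 383 to 509.5 (log2 change 1.57 ± 0.46 (SE), adjusted p = 0.0207). That call ended without naive 1, naive 3 or GVHD-activated 1, with adjusted p from 0.0573 to 0.0996. Ddx58, the gene for RIG-I, read 1384 to 2113 in naive replicates 1 to 3 and 2116 to 2968 in GVHD, without overlap and without passing the test (log2 change 0.55 ± 0.24 (SE), adjusted p = 0.124).

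Of the 5 oligoadenylate synthetase genes measured, 3 rose in GVHD and 4 in tumor, where the count includes Oasl2, which was tested only through the tumor samples. In naive replicates 1 to 3 Oas1a read 728, 322 and 511, against 5271, 4237 and 4621 in the GVHD-activated samples. Oas1a read 1018, 728 and 714 in naive replicates 4 to 6 and 976, 1014, 2448, 846 and 961 in the tumor-activated samples. Oas1a in the GVHD samples stood above all 11 other arrays, 8.97-fold over its controls (log2 change 3.16 ± 0.37 (SE), adjusted p = 1.32e-05). Among the tumor samples 4 lay between 846 and 1014 and tumor-activated 3 at 2448, and the group overlapped its controls (log2 change 0.49 ± 0.33 (SE), adjusted p = 0.285). The difference between the changes was -2.68 ± 0.50 (SE, adjusted p = 0.00233).

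The Oas2 signal was 322, 164 and 361 in naive replicates 1 to 3 and 2171, 2224 and 1840.3 in the GVHD-activated samples. The Oas2 values were 123, 156 and 153 in naive replicates 4 to 6 and 416, 519, 405, 538 and 679 in the tumor-activated samples. Oas2 separated in both comparisons, and the GVHD values were also above every tumor value. The rise was 6.99-fold in GVHD (log2 change 2.80 ± 0.30 (SE), adjusted p = 4.27e-06) and 3.05-fold in tumor (log2 change 1.61 ± 0.26 (SE), adjusted p = 3.07e-04). Their difference, -1.20 ± 0.40 (SE), did not pass the test (adjusted p = 0.066).

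Oas3 signals were 227, 134 and 257 in naive replicates 1 to 3 and 1493, 2108 and 2147 in the GVHD-activated samples. For Oas3, naive replicates 4 to 6 gave 99.6, 118 and 187, and the tumor-activated samples gave 289, 238, 527, 491 and 308. Oas3 showed the same order, with GVHD highest, tumor between and both naive sets lowest, although tumor values overlapped naive replicates 1 to 3. It rose 8.30-fold in GVHD (log2 change 3.05 ± 0.34 (SE), adjusted p = 8.01e-06) and 2.37-fold in tumor (log2 change 1.25 ± 0.30 (SE), adjusted p = 0.00582). The tumor change minus the GVHD change was -1.81 ± 0.46 (SE, adjusted p = 0.0172), a call that ended without naive 2 (-1.57 with adjusted p = 0.0511) and without naive 6 (-1.59 with adjusted p = 0.0502).

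Oasl2 and Oasl1 are OAS-like genes, and Oasl1 is known to limit translation of Irf7. Oasl2 had a pattern unlike the others. In naive replicates 1 to 3 Oasl2 read 9.85, 71.7 and 2.92, against 52.9, 11.1 and 20.9 in the GVHD-activated samples. Oasl2 read 8.30, 20.5 and 21.2 in naive replicates 4 to 6 and 264, 195, 429, 97.2 and 124 in the tumor-activated samples. It was below 100 in all naive and GVHD arrays and 97.2 to 429 in tumor, where it rose (log2 change 2.25 ± 0.44 (SE), adjusted p = 0.00139). With all its controls below 100, the size of that change depends on the offset of 32, and some rise in that group followed from the filter. Oasl1 rose in tumor, at 116 to 186 against 58.1 to 90.2 in controls that were all below 100 (log2 change 0.69 ± 0.25 (SE), adjusted p = 0.0448), yet naive replicates 1 to 3 read 147 to 193 and against them the change was -0.20 (adjusted p = 0.536). Of the fits that left out 1 array, 6 ended the Oasl1 call (naive 4, 5 or 6, tumor-activated 1, 2 or 5), with values from 0.55 to 0.77.

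**Figure D3:**
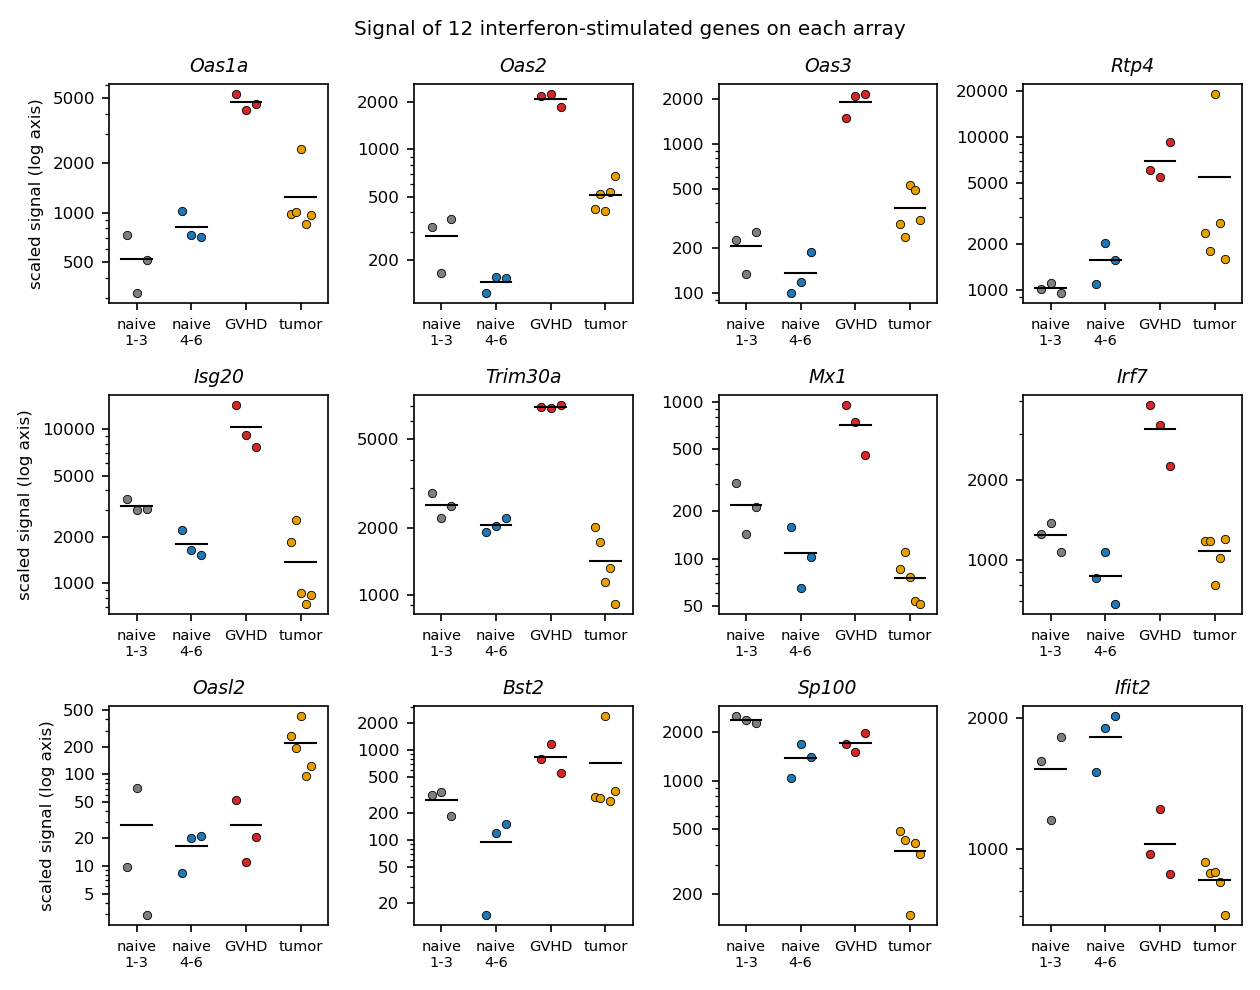
Signal on a log axis for 12 members, 1 point per array, with a bar at the arithmetic mean of each of the 4 groups. In the panels of Oas1a, Oas2, Oas3, Isg20, Trim30a, Mx1 and Irf7 the 3 GVHD points lie above all others, in the Oasl2 panel the tumor points do, and in the Sp100 panel the tumor points lie below all others.

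The 3 IFIT genes, whose products bind viral RNA or the translation machinery, gave 1 rise in GVHD and 1 fall in tumor. Ifit3 rose in GVHD, reading 913 to 1624 against 359.7 to 577 (log2 change 1.47 ± 0.36 (SE), adjusted p = 0.00754), and its tumor values of 120.4 to 365 overlapped the control range of 142 to 253. Ifit1 read 262 to 608 in naive replicates 1 to 3 and 694 to 1299 in GVHD, without overlap but short of the test (log2 change 1.20 ± 0.45 (SE), adjusted p = 0.0681). The Ifit2 signal was 1594, 1162 and 1814 in naive replicates 1 to 3 and 974, 1232 and 872 in the GVHD-activated samples. The Ifit2 values were 1502, 1895 and 2019 in naive replicates 4 to 6 and 933, 880.4, 884, 836 and 703 in the tumor-activated samples. Every tumor value of Ifit2 was below both naive sets (log2 change -1.06 ± 0.23 (SE), adjusted p = 0.00238), whereas the GVHD values overlapped naive replicates 1 to 3 (log2 change -0.55 ± 0.25 (SE), adjusted p = 0.136).

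Mx1 and Mx2 encode dynamin-like GTPases that trap incoming viral particles. Mx1 signals were 305, 143 and 214 in naive replicates 1 to 3 and 949.9, 743 and 457 in the GVHD-activated samples. For Mx1, naive replicates 4 to 6 gave 159, 64.5 and 102, and the tumor-activated samples gave 85.9, 109.8, 76.3, 53.8 and 51.3. The GVHD values of Mx1 were the highest of all arrays (log2 change 1.56 ± 0.36 (SE), adjusted p = 0.00549), and the tumor values overlapped their controls (log2 change -0.36 ± 0.33 (SE), adjusted p = 0.433). The difference was -1.92 ± 0.49 (SE, adjusted p = 0.0177), and it lost its call without naive 2 (-1.68 with adjusted p = 0.0511), naive 4 (-1.67 with adjusted p = 0.0541) or GVHD-activated 1 (-1.70 with adjusted p = 0.0507). Mx2 was high in one control set and in GVHD, and low in the other control set and in tumor. Its signals were 237, 144 and 142 in naive replicates 1 to 3 and 156, 202 and 173 in GVHD, but 3.20, 10.2 and 15.3 in naive replicates 4 to 6 and 26.3, 11.7, 10.7, 8.30 and 41.0 in tumor. Neither activation passed the test against its own controls (log2 change 0.04 ± 0.34 (SE), adjusted p = 0.946 in GVHD, and log2 change 0.28 ± 0.30 (SE), adjusted p = 0.512 in tumor).

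Of the ISG15 system, Usp18, the protease that removes ISG15 and blocks the receptor, rose in GVHD, with 1847 to 2864 against 551 to 881 (log2 change 1.65 ± 0.42 (SE), adjusted p = 0.00916). In tumor, Usp18 read 643, 620.1, 2114, 475 and 573 against 412, 387 and 412, without overlap and short of the test (log2 change 0.84 ± 0.37 (SE), adjusted p = 0.0978). Trim25 encodes the ligase that ubiquitinates RIG-I. In naive replicates 1 to 3 Trim25 read 6390.0, 6146 and 6289, against 7628, 11071 and 9409.8 in the GVHD-activated samples. Trim25 read 7351, 9270.0 and 9497 in naive replicates 4 to 6 and 8029, 8169.8, 13498, 12485 and 9007 in the tumor-activated samples. It lay above naive replicates 1 to 3 in GVHD without passing the test (log2 change 0.56 ± 0.26 (SE), adjusted p = 0.136), and the tumor values overlapped their controls (log2 change 0.21 ± 0.23 (SE), adjusted p = 0.534). A dimmer Trim25 probe set rose in GVHD (1.77).

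Among 6 enzymes that act on nucleic acids and nucleotides, 4 rose in GVHD and 1 in tumor. Isg20 is an exonuclease that degrades viral RNA. The Isg20 signal was 3494, 2978 and 3007 in naive replicates 1 to 3 and 14288, 9224 and 7676 in the GVHD-activated samples. The Isg20 values were 2211, 1641 and 1519.6 in naive replicates 4 to 6 and 1849, 2563, 862, 729 and 839 in the tumor-activated samples. The GVHD values were the highest of the 14 (log2 change 1.66 ± 0.41 (SE), adjusted p = 0.00778), and tumor values ran from below their controls to above them (log2 change -0.54 ± 0.37 (SE), adjusted p = 0.284). The difference of -2.20 ± 0.55 (SE) passed the test (adjusted p = 0.0161).

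Rsad2 encodes viperin, which makes a chain-terminating nucleotide, and Cmpk2, its neighbour on chromosome 12, encodes a mitochondrial nucleotide kinase. Rsad2 signals were 109, 125 and 167 in naive replicates 1 to 3 and 472, 691 and 525.5 in the GVHD-activated samples. For Rsad2, naive replicates 4 to 6 gave 509, 161 and 255, and the tumor-activated samples gave 794, 855, 1939.6, 767 and 543. Rsad2 separated from its own controls in both comparisons, 3.59-fold in GVHD (log2 change 1.84 ± 0.42 (SE), adjusted p = 0.00465) and 2.97-fold in tumor (log2 change 1.57 ± 0.38 (SE), adjusted p = 0.00511). A second Rsad2 probe set gave 0.44 in GVHD. Naive 4 lay above GVHD-activated 1, and against naive replicates 4 to 6 the GVHD change was 0.92 (adjusted p = 0.103). In naive replicates 1 to 3 Cmpk2 read 208, 93.3 and 183, against 671, 772 and 601 in the GVHD-activated samples. Cmpk2 read 272, 178 and 185 in naive replicates 4 to 6 and 382, 239, 588, 277 and 281 in the tumor-activated samples. Cmpk2 in GVHD was above all other arrays (log2 change 1.93 ± 0.34 (SE), adjusted p = 7.11e-04), and the tumor values overlapped their controls (log2 change 0.61 ± 0.31 (SE), adjusted p = 0.141).

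Samhd1, the dNTP hydrolase, rose in GVHD, at 30131 to 39576 against 18412 to 25253 (log2 change 0.72 ± 0.24 (SE), adjusted p = 0.0403), a call that ended without naive 1, naive 2, GVHD-activated 1 or GVHD-activated 2, with adjusted p from 0.102 to 0.134. Its 5 probe sets ranged from -0.41 to 2.49 in GVHD. Adar, which edits double-stranded RNA, changed by 0.31 in GVHD (adjusted p = 0.543) and -0.49 in tumor (adjusted p = 0.209). Its 2 dimmer probe sets fell in tumor (-0.92 and -1.44). Eif2ak2, the kinase PKR that stops translation, changed by 0.28 (adjusted p = 0.624) and 0.62 (adjusted p = 0.149).

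Parp9 and Dtx3l act as a pair in ADP-ribosylation and ubiquitination and share a promoter region, and Parp14 is a related transferase. The Parp9 signal was 2528, 2177 and 2668 in naive replicates 1 to 3 and 7546, 7619.8 and 7632 in the GVHD-activated samples. The Parp9 values were 1408, 2532 and 2553 in naive replicates 4 to 6 and 4123, 3109.6, 4759, 3727 and 3174 in the tumor-activated samples. Parp9 rose in both comparisons (log2 change 1.62 ± 0.27 (SE), adjusted p = 3.77e-04 in GVHD, and log2 change 0.83 ± 0.24 (SE), adjusted p = 0.0157 in tumor) without overlap in either. Without naive 4, its tumor change was 0.55 with adjusted p = 0.101. Dtx3l rose in GVHD, at 5575 to 6077 against 1909 to 2315 (log2 change 1.40 ± 0.35 (SE), adjusted p = 0.00906), and read 967 to 3196 in tumor, where it did not pass the test (log2 change 0.27 ± 0.32 (SE), adjusted p = 0.555). Parp14 passed no test (log2 change 0.57 ± 0.32 (SE), adjusted p = 0.229 in GVHD, and log2 change -0.61 ± 0.29 (SE), adjusted p = 0.118 in tumor).

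Rtp4, a chaperone of membrane receptors, had the fourth largest rise in GVHD. Rtp4 signals were 1021, 1116 and 959 in naive replicates 1 to 3 and 6171, 5497 and 9295 in the GVHD-activated samples. For Rtp4, naive replicates 4 to 6 gave 1094, 2028 and 1580.5, and the tumor-activated samples gave 2366, 1804, 19119, 2769 and 1604. Its GVHD values were above both naive sets, 6.44-fold over naive replicates 1 to 3 (log2 change 2.69 ± 0.65 (SE), adjusted p = 0.00673). In tumor 4 samples read 1604 to 2769 and tumor-activated 3 read 19119, and the group did not pass the test (log2 change 1.08 ± 0.58 (SE), adjusted p = 0.169).

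Bst2 encodes tetherin, which holds budding virus at the cell surface and is also a marker of plasmacytoid dendritic cells. In naive replicates 1 to 3 Bst2 read 314, 339 and 185, against 799.9, 1158 and 556 in the GVHD-activated samples. Bst2 read 14.6, 119.9 and 149 in naive replicates 4 to 6 and 303, 290.2, 2369.6, 270.5 and 349 in the tumor-activated samples. Bst2 was above its controls in every tumor sample, 4.56-fold by the fit (log2 change 2.19 ± 0.60 (SE), adjusted p = 0.0116). Without tumor-activated 3 the log2 change was 1.62 (adjusted p = 0.00452), and without naive 4 it was 1.58 with adjusted p = 0.0834. The GVHD values lay above all 6 naive arrays but did not pass the test against naive replicates 1 to 3 (log2 change 1.46 ± 0.67 (SE), adjusted p = 0.133). Siglech, the other plasmacytoid marker measured, did not pass the test in tumor (log2 change 0.01). Its signal was below 100 in all of naive replicates 4 to 6, which limits what that value can show.

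Trim30a restrains inflammatory signalling. The Trim30a signal was 2850.1, 2219.7 and 2501 in naive replicates 1 to 3 and 6904, 6861 and 7039.9 in the GVHD-activated samples. The Trim30a values were 1909, 2031 and 2212 in naive replicates 4 to 6 and 2019, 1728, 1138, 1316 and 911 in the tumor-activated samples. The 3 GVHD values were close together and above all others (log2 change 1.45 ± 0.28 (SE), adjusted p = 0.00131), and the tumor values overlapped their controls (log2 change -0.57 ± 0.25 (SE), adjusted p = 0.0916). The difference was -2.03 ± 0.37 (SE, adjusted p = 0.00222). Xaf1, an antagonist of XIAP, rose in GVHD, with signals of 5608 to 8767 against 2676 to 3783 (log2 change 1.30 ± 0.34 (SE), adjusted p = 0.0124), with adjusted p from 0.05004 to 0.0543 without naive 1, GVHD-activated 1 or GVHD-activated 2. Ifi35 passed neither test (log2 change 0.82 ± 0.46 (SE), adjusted p = 0.224 in GVHD, and log2 change -0.05 ± 0.41 (SE), adjusted p = 0.946 in tumor).

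Sp100, a component of PML nuclear bodies, had the largest fall of the members in tumor. Sp100 signals were 2494, 2360.1 and 2266 in naive replicates 1 to 3 and 1682, 1504 and 1965 in the GVHD-activated samples. For Sp100, naive replicates 4 to 6 gave 1039.8, 1692 and 1402, and the tumor-activated samples gave 487, 430.4, 147, 414 and 351. Every tumor value was below every other array (log2 change -1.89 ± 0.31 (SE), adjusted p = 2.91e-04), and this held without tumor-activated 3, the lowest (log2 change -1.62, adjusted p = 1.12e-05). The GVHD values were below naive replicates 1 to 3 without passing the test (log2 change -0.47 ± 0.34 (SE), adjusted p = 0.37), and a second probe set gave 0.62 in GVHD and -1.83 in tumor.

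Between the naive sets 1 of the 35 members passed the test, a count too small to set apart from the background share. Log2 signals were lower on average in naive replicates 4 to 6 than in 1 to 3 for 26 of 35 members, with a median of -0.42 against -0.07 over all genes. The member called was Mx2 (log2 change -2.29 ± 0.34 (SE), adjusted p = 0.00101), 2.86% of the members, against 3.43% of all genes that fell, 4.43% that rose and 7.86% either way, and 17 members (48.6%) did not overlap, against 40.0% of all genes. Against naive replicates 4 to 6, 24 members rose in GVHD (68.6%, against 15.4% of all genes) and 2 fell (5.71%, against 17.8%), Ddx60 and Ifit2. Those 24 hold 18 of the 19 above, without Rsad2, and also Ddx58, Oasl1, Ifit1, Mx2, Bst2 and Ifi35. Oas1a changed by 2.49 there, less than the 3.16 from its own controls, and Mx2 by 2.34, more than the 0.04 from its own. Among the 19, the change was also smaller there for Ifih1, Rsad2, Cmpk2 and Rtp4. The tumor samples against naive replicates 1 to 3 had 9 rises (25.7%) and 10 falls (28.6%), near the 21.9% and 25.2% of all genes. The falls were Ddx60, Ifit1, Ifit2, Mx1, Mx2, Isg20, Samhd1, Adar, Trim30a and Sp100. Of the 7 rises against the tumor samples' own controls only Oas2, Oasl2, Rsad2 and Parp9 were again among the 9. The other rises were Oas1a, Trim25, Eif2ak2, Cmpk2 and Rtp4, none of which passed the test against the own controls.

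**Figure D4:**
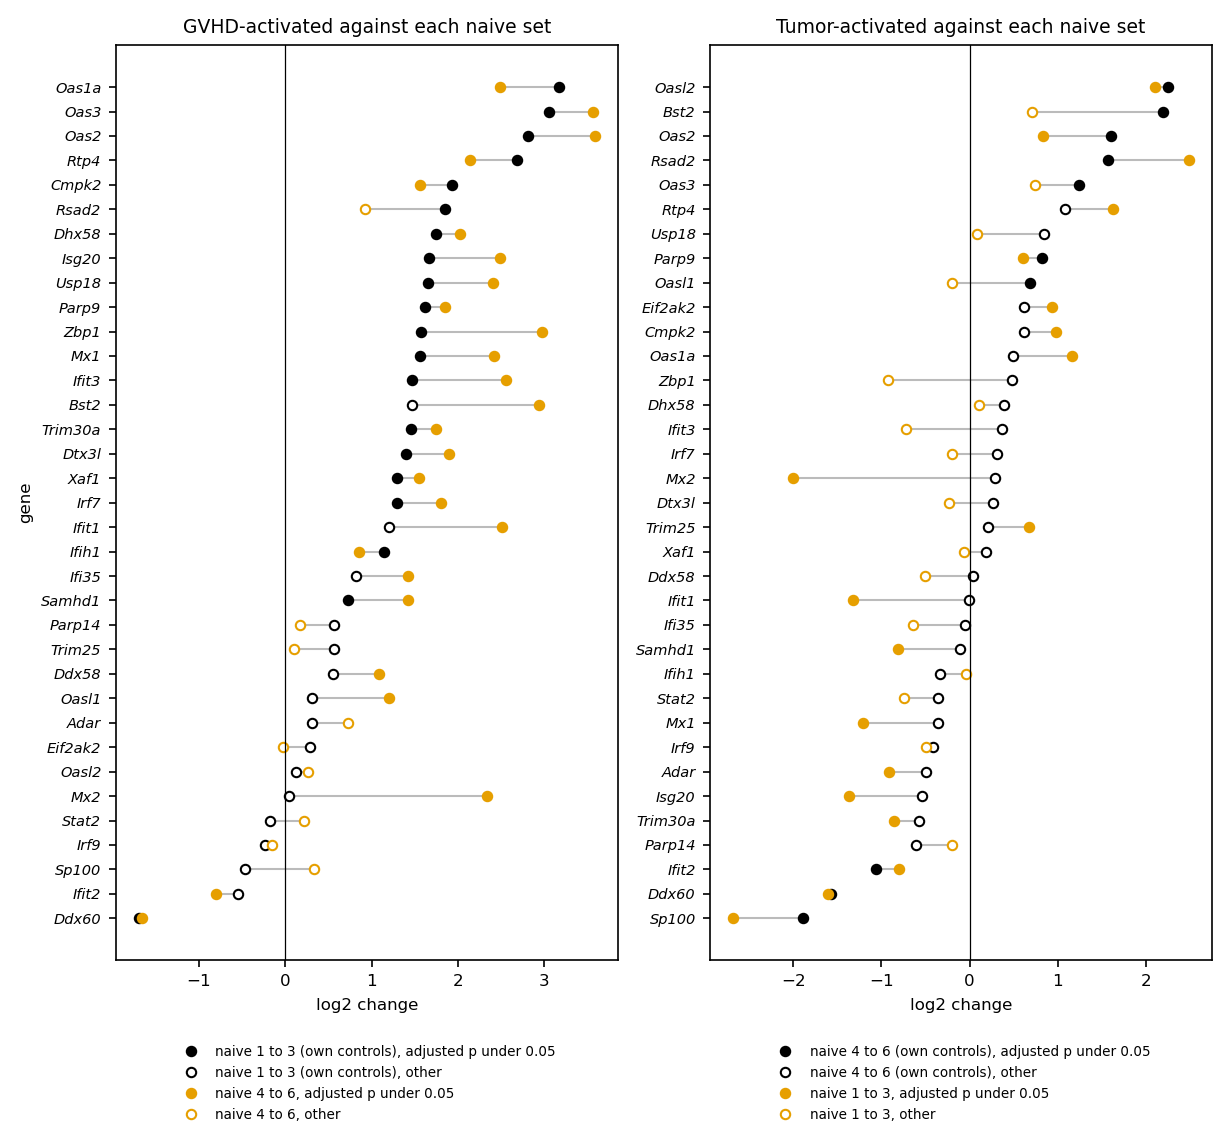
Log2 change of each of the 35 members against its own naive controls (black) and against the other naive set (orange), with filled points where the adjusted p was under 0.05; the left panel is GVHD and the right panel tumor. In GVHD 18 members are filled and positive with both control sets, and in tumor 4 are.

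Of 101 further genes listed by role, 87 had a probe set of their own and 81 were tested. In GVHD 17 rose (21.0%, against 9.83% of all genes) and 4 fell (4.94%, against 12.5%), with a median log2 change of 0.28. There 0 of 7 STAT and IRF factors and 0 of 7 inhibitors of interferon signalling passed the test (medians -0.29 and -0.15). Of 9 sensor adaptors and kinases 1 rose and 1 fell (11.1% each, near the shares of all genes, median -0.38). In tumor 10 rose (12.3%) and 15 fell (18.5%), near the 16.2% and 15.5% of all genes, with a median of -0.12. The interferon genes Ifnb1, Ifna1, Ifna2, Ifna4 and Ifna9 were too dim to test. Of the 2 interferon genes tested, Ifng, the gene for interferon gamma, read 847 to 1019 in naive replicates 1 to 3 and 3272 to 4141 in GVHD (log2 change 2.03 ± 0.63 (SE), adjusted p = 0.0293). The other, a type I interferon gene, changed by 1.00 log2 units in GVHD without passing the test, and neither passed in tumor.

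Of 7 genes for interferon receptors and their kinases, Ifngr1 rose and Ifngr2 fell in GVHD, and Ifnar1, Jak1, Jak2 and Tyk2 fell in tumor. Ifnar1 read 2433, 2504 and 1911 in naive replicates 4 to 6 and 1262, 1453, 222, 1039.7 and 1138 in tumor (log2 change -1.34 ± 0.43 (SE), adjusted p = 0.025). In GVHD, Ifnar1 read 1430.3, 1686 and 1576 against 2035, 1888 and 2404, below its controls but short of the test (log2 change -0.42 ± 0.48 (SE), adjusted p = 0.585). Ifnar2 passed neither test (log2 change -0.81 ± 0.33 (SE), adjusted p = 0.0918 in GVHD, and log2 change 0.55 ± 0.29 (SE), adjusted p = 0.172 in tumor). The kinase calls in tumor stand beside the fall in T cell markers given above, and the part of that fall in them was not tested. The difference between the changes was called for 3 of the 81, namely Ifngr2 (1.60), Cd274 (1.36) and Tap2 (-1.29). Those with a higher change in tumor were 2.47%, against 7.39% of all genes, and those with a lower one 1.23%, against 3.39%. Both shares were below the background.

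Of 32 other genes induced by type I interferon, 8 rose in GVHD (25.0%, against 9.83% of all genes) and 1 fell (3.12%, against 12.5%). In tumor 7 rose (21.9%) and 6 fell (18.8%), near the 16.2% and 15.5% of all genes. Among the largest rises in both were those of the Ifitm genes, whose products block fusion of viruses with the cell membrane. Ifitm3 read 279 to 742 in naive replicates 1 to 3 and 9861 to 20798 in GVHD (32.4-fold, adjusted p = 2.08e-05). In tumor it read 2486 to 20545 against 164 to 421 (15.5-fold, adjusted p = 7.30e-05). Ifitm1 rose 41.2-fold in GVHD and 83.9-fold in tumor, and Ifitm2 rose 13.5-fold in GVHD and 13.5-fold in tumor. Naive 6 read 1695 for Ifitm1 against at most 107 in the other naive arrays, and without it the tumor log2 change was 7.71. The Ifitm genes are also made by myeloid cells, and the part of the macrophage marker sums given above in their tumor values was not tested.

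Parp12, an ADP-ribosyltransferase, rose 7.53-fold in GVHD and 4.36-fold in tumor. Mlkl, the effector of necroptosis, rose 14.2-fold in tumor and 3.09-fold in GVHD. Ms4a4c fell in both (-1.96 and -1.74 log2 units), although tumor-activated 3 read 3228, inside the range of its controls. Of 17 genes induced mainly by interferon gamma, 6 rose in GVHD (35.3%, against 9.83% of all genes), namely Gbp3, Igtp, Irgm1, Irgm2, Iigp1 and Tap2. Cxcl10 fell there (5.88%, against 12.5% of all genes). In tumor 3 rose (17.6%, near the 16.2% of all genes), namely Gbp2, Irgm1 and Cd274. Iigp1, a GTPase of the IRG family, read 1732 to 2528 in naive replicates 1 to 3 and 9811 to 12154 in GVHD (5.33-fold, adjusted p = 0.0014).

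**Figure D5:**
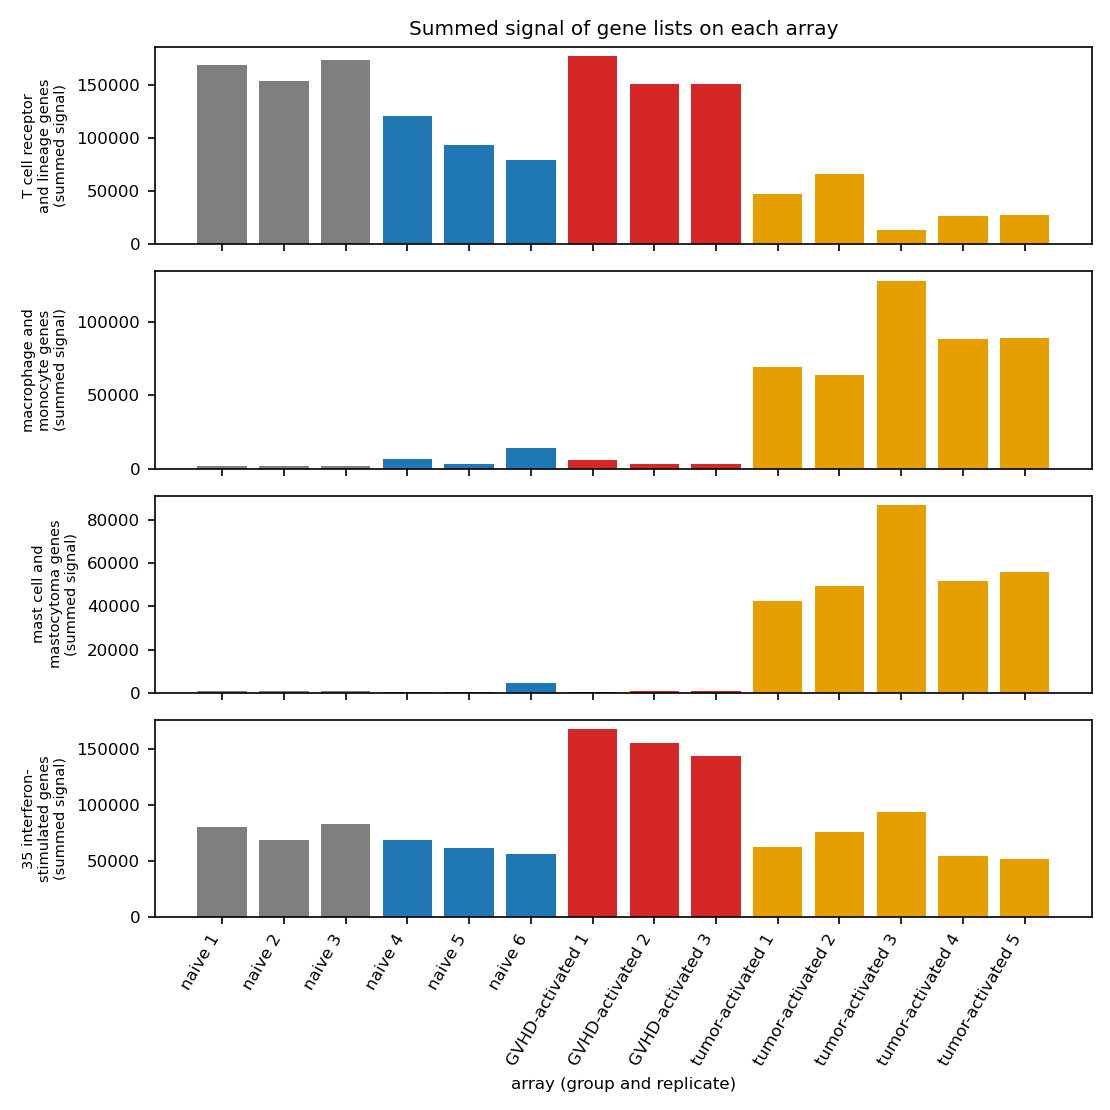
Bars give the summed signal on each of the 14 arrays, in panels for marker lists of T cells, macrophages and mast cells and for the 35 members, coloured by group. The member sums were 143597 to 167352 in GVHD and 51716 to 93208 in tumor, where tumor-activated 3 had the highest member, macrophage and mast cell sums and the lowest T cell sum.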

How the data were processed

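RNA of 14 sorted Treg samples was hybridised to 1-colour Affymetrix arrays of 45101 probe sets. The deposited values are linear intensities per probe set, which the authors computed with MAS5 (version not given in the sources used here), per the submitters' processing notes. The GVHD-activated arrays had a trimmed mean of 1500 and the others 500. All arrays were brought to 500 (2% trimmed at each end) and log2(signal + 32) was computed, which understates changes of dim genes. The platform annotation named 1 gene for 34945 probe sets and several for 932. The brightest single-gene probe set by mean log2 stood for a gene where it reached 100 in 3 arrays, and 12212 genes passed. Group means over all 14 arrays were fitted with limma 3.58.1 (trended eBayes) in R 4.3.3, with Benjamini-Hochberg adjustment over 12212 genes at 0.05, and tested on simulated data. Array values carry no read depth, and the number of arrays limits the precision. No label says that replicate numbers shared between groups pair samples, so pairing was left out of the main fit. Deviations of same-numbered arrays correlated at 0.06, 0.10 and -0.06 for GVHD and -0.50 and 0.06 for tumor. So few values cannot settle whether the numbers pair samples. Members and lists were chosen with earlier results of these data known. All members are named; values in every array are given for the 8 called with the largest changes in each comparison, for Stat2, Irf9 and Irf7, and for the brightest member of a role group with none. Other pathway genes named are the 6 with the largest called changes, plus Ifnar1 and Ifnar2. Alternatives were other scalings, offsets, filters, probe set rules, control sets, array weights, a replicate block and leaving out each array.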

Additional observations from a re-analysis of the deposited data

Results flagged for a closer look

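In the group of 5 tumor-activated samples, replicate 3 lay far from the other 4 for 6 of 35 members. Over 35 such tests chance flags about 1 in 20. It was the highest for Dhx58 (509.8, others 284 to 333), Oas1a (2448, others 846 to 1014), Usp18 (2114, others 475 to 643), Bst2 (2369.6, others 270.5 to 349) and Rtp4 (19119, others 1604 to 2769). It was the lowest for Sp100 (147, others 351 to 487). The same sample had the lowest T cell marker sum (13595) and the highest macrophage (128376) and mast cell (87083) marker sums of the 5, and their part in these values was not tested.

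The changes in tumor and in GVHD, each from its own controls, differed by limma's test of the difference for 7 members. In log2 units the tumor change was lower by the following differences: Oas1a -2.68, Isg20 -2.20, Trim30a -2.03, Mx1 -1.92, Oas3 -1.81, Ifih1 -1.48 and Dhx58 -1.35. Of the 81 other pathway genes tested, 3 differed, a share below the 10.8% of all genes. Tap2, a peptide transporter subunit, differed by -1.29, with a rise in GVHD (0.85) and a tumor change of -0.43 that did not pass the test. The interferon gamma receptor chain Ifngr2 differed by 1.60, with a fall in GVHD (-1.61) and a tumor change of -0.01 that did not pass. Cd274, the gene for PD-L1, differed by 1.36, with a rise in tumor (0.80) and a GVHD change of -0.56 that did not pass.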

How the results depend on the processing

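Of the member calls, 3 of 20 in GVHD (Oas1a, Oas2 and Oas3), 1 of 10 in tumor (Oas2) and 0 of 7 differences held in all 14 alternatives and in every fit without 1 array; 16, 6 and 4 held in every fit without 1 array. Counts called among members in GVHD (20), tumor (10), the difference (7) and between naive sets (1), and among other pathway genes in GVHD (21), tumor (25) and the difference (3), moved as follows. Without rescaling they were 34 and 32 (members, GVHD and difference) and 71 and 66 (other genes), with the median of all genes in GVHD at 1.32. With arrays centred on T cell markers, which put that median at 0.20 in GVHD and 1.79 in tumor, members gave 3 in GVHD (median change 1.59), 32 in tumor, 0 in the difference and 0 between naive sets, and other genes gave 5 and 55. Array weights gave 17, 20 and 17 for members (tumor, difference, naive sets) and 40, 43 and 29 for other genes (GVHD, tumor, difference). Calls over all 12212 genes grew too, in tumor to 3142 rises and 3071 falls, from 1974 and 1895 in the main fit. In the difference they grew to 2041 and 1270, from 902 and 414, and between naive sets to 2034 and 2288, from 541 and 419. With the other naive set, members gave 19 in tumor and 24 in the difference, and other genes 34 and 35 in GVHD and the difference. With all 6 naive arrays the same counts were 19, 25, 38 and 37. Over all genes, the other naive set gave 2672 rises and 3072 falls in tumor and 2374 and 2401 in the difference. All 6 naive arrays gave 2683 and 2942 in tumor and 2468 and 2276 in the difference. With the groups of a comparison fitted alone, other genes gave 42 and 14 (GVHD, tumor), and the naive sets differed in 8 members. All genes then gave 2007 rises and 2593 falls in GVHD, 1553 and 1200 in tumor and 1248 and 1111 between naive sets. Leaving out tumor-activated 3 and naive 6 together gave 15 and 4 members (difference, naive sets) and 34 and 14 other genes (GVHD, difference). Quantile normalization gave 7 other genes in the difference and 2 members between naive sets, an offset of 64 gave 5 other genes, the mean of all probe sets gave 2 members between naive sets and a minimum of 200 gave 0.

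With the replicate number as a block, members gave 19 in GVHD, 3 in tumor, 4 in the difference and 0 between naive sets. Other genes gave 16, 10 and 4 in GVHD, tumor and the difference. No label says whether the numbers pair the samples. Leaving out 1 array gave 16 to 19, 7 to 11, 4 to 15 and 1 to 2 for the members (GVHD, tumor, difference, naive sets) and 10 to 14, 12 to 31 and 0 to 14 for the other genes. Directions reversed for Ddx60 in GVHD without rescaling (1.32) and without GVHD-activated 3 (0.11, with -2.04 to 0.11 over the fits without 1 array), for Ddx60 (0.28) and Ifit2 (0.79) in tumor and Ifih1 (0.064) and Dhx58 (0.20) in the difference with T cell centring, and for Oasl1 in tumor with the other naive set (-0.20). Beyond the scale, the control set and the probe set choice, the cause was not tested. T cell centring moved all genes alike, to a median of 1.79 in tumor and 1.56 in the difference. Signals under 100 limit Oasl2 (all naive and GVHD arrays), Mx2 (naive 4 to 6 and all tumor arrays), Oasl1 (naive 4 to 6), Mx1 (4 of 5 tumor arrays) and Ddx60 (some arrays).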

Other observations

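Members with several single-gene probe sets give a second reading of the same gene, with p-values adjusted over all probe sets past the filter. The probe sets of Trim30a, Zbp1, Dtx3l, Xaf1 and Rtp4 rose together in GVHD. The 5 probe sets of Samhd1 gave log2 changes from -0.41 to 2.49 there, and 2 rose. A second probe set of Sp100 gave 0.62 in GVHD and -1.83 in tumor, and the difference of -2.45 passed the test. A second Rsad2 probe set gave 0.44 in GVHD. For Ifi35 a dimmer probe set rose in GVHD (1.17), as did 1 for Eif2ak2 (1.43) and 1 for Trim25 (1.77). The brightest probe set of none of these genes passed the test there. In tumor, 2 dimmer probe sets of Adar fell (-0.92 and -1.44), and so did 1 of Ddx58 (-0.96), although the brightest of neither gene passed.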
